A study of Mus musculus with 22 samples.

Results

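Immune checkpoints are receptor and ligand pairs that dampen T cell responses, and regulatory T cells are the lymphocytes that suppress other T cells. The 10 genes described here are Cd274 and Pdcd1lg2 (the ligands PD-L1 and PD-L2), Pdcd1, Ctla4, Lag3, Tigit, Havcr2 and Vsir (the receptors PD-1, CTLA-4, LAG-3, TIGIT, TIM-3 and VISTA), and Foxp3 and Il2ra, which mark regulatory T cells. They were taken by symbol, matched to Ensembl gene IDs, out of 56748 gene IDs listed for each library. All 10 were found, and all 10 were among the 19202 genes that passed the filter on low counts.

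The measurements are bulk RNA-seq of 22 primary tumours from the buccal mucosa (cheek lining) of mice, labelled squamous carcinoma. Every mouse carried 1 Krt5CreER-T2 allele, floxed Trp53 (Trp53fl/fl) and 2 copies of the Rosa26 LSL-PIK3CA(H1047R) transgene. The Krt5 promoter drives the tamoxifen-activated Cre in basal keratinocytes, so recombination is directed to those cells and other cells of the tumour are not targeted. Tumours were started by injecting 4-hydroxytamoxifen into the cheek lining, either alone (called untreated) or with BAP, that is benzo[a]pyrene, which is formed when tobacco burns and damages DNA. The groups were 6 untreated tumours without a floxed Keap1 allele (Keap1-wildtype untreated), 6 such tumours with BAP (Keap1-wildtype BAP), 5 untreated tumours that also carried Keap1fl/fl (Keap1-deleted untreated) and 5 of these with BAP (Keap1-deleted BAP). KEAP1 is the adaptor that directs the transcription factor NRF2 to degradation. The series states the role of this pathway in the tumour immune microenvironment as part of its aim. The labels give no age or sex and do not say if some tumours share an animal, so p values measure only the spread between these tumours.

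PD-1 on T cells is engaged by PD-L1 and PD-L2, and PD-L1 can be carried by tumour cells and by myeloid cells and is raised by interferon gamma. CTLA-4 competes with the activating receptor CD28 for CD80 and CD86, TIGIT competes with CD226 for the poliovirus receptor, and LAG-3 binds MHC class II. TIM-3 and VISTA are found on lymphocytes and also on macrophages and dendritic cells, VISTA above all on myeloid cells. FOXP3 is the transcription factor that defines regulatory T cells, and IL2RA (CD25) is the alpha chain of the interleukin 2 receptor, which those cells carry at high density.

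The promoters of the 3 genes that passed a test in at least 1 comparison, Havcr2, Vsir and Cd274, are shown so that their sequence can be read beside their values. Sequences are from RefSeq on GRCm38.p6, 300 bases each, from 250 bases before to 50 bases after the annotated start, and all 3 lie on the plus strand. The windows are chr11:46454681-46454980 for Havcr2, chr10:60346601-60346900 for Vsir and chr19:29367188-29367487 for Cd274. Capitals mark matches to the motifs searched.
Havcr2: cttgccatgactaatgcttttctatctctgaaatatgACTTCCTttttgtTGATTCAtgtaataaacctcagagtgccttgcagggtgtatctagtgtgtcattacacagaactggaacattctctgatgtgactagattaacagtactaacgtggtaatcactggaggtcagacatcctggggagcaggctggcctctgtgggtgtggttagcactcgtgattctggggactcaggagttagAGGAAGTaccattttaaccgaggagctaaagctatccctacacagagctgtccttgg
Vsir: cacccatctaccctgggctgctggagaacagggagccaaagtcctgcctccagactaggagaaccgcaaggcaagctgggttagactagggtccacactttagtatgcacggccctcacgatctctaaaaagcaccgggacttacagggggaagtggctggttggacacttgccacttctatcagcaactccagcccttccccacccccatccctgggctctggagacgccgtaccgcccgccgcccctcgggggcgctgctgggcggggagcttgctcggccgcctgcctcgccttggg
Cd274: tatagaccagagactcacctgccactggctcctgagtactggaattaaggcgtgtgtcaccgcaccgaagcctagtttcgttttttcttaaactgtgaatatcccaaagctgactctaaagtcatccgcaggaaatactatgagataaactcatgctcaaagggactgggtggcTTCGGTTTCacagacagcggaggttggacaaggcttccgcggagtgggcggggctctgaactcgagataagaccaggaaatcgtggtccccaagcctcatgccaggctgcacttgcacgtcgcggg

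The search covered 6 motifs on both strands of these windows. They were the interferon-stimulated response element core GAAANNGAA, the antioxidant response element core TGACNNNGC to which NRF2 binds, the ETS core AGGAAGT, the AP-1 site TGANTCA, the NF-kB site GGNNTTTCC and the TATA box TATAAA. Of 32851 promoter windows of the same length, 8.56% held the first, 12.4% the second, 9.35% the third, 7.81% the fourth, 5.82% the fifth and 13.6% the sixth. The Havcr2 window held the ETS core on its own strand at bases -7 to -1 from the start, the ETS core on the opposite strand at -213 to -207 and an AP-1 site at -200 to -194. The Cd274 window held the interferon-stimulated core on the opposite strand at -76 to -68. With 1 more A at its end, this core was found in 3.44% of all windows and in none of the members'. None of the 6 motifs was present in these letters in the Vsir window. Among the other members with an entry, the antioxidant response element core was found in the Tigit window alone, at -39 to -31. The ETS core was found for Il2ra at -35 to -29 on the opposite strand, and a TATA box for 1 of the 2 Foxp3 windows at -32 to -27 and for Ctla4 at 41 to 46. The Ctla4 window also held the interferon-stimulated core, on the opposite strand at -166 to -158.

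Libraries held 29235010 to 39862777 counts. Levels are in CPM, each count scaled to the size of its library, with TMM factors. Differences are log2 fold changes ± the standard error (SE), taken from 1 edgeR quasi-likelihood fit of all 22 libraries and called at a Benjamini-Hochberg adjusted p under 0.05 over all 19202 genes. With Keap1 wildtype, Keap1 itself stood at 57.1 ± 12 CPM (SD, n = 6) without BAP and 58.0 ± 4.22 CPM (SD, n = 6) with it, and with Keap1 deleted at 28.8 ± 5.96 CPM (SD, n = 5) and 30.4 ± 21.9 CPM (SD, n = 5). Keap1 was called lower with deletion in BAP tumours (-0.93 ± 0.32, edgeR adjusted p = 0.0253) and not in untreated ones (-0.98 ± 0.32, 0.137). The untreated groups nevertheless did not overlap in Keap1 (22.2 to 36.4 CPM with deletion and 45.7 to 78.9 CPM without), whereas the BAP groups did. The library labelled Keap1-deleted BAP 2 was at 65.5 CPM, within the Keap1-wildtype range, so its Keap1 level does not bear out its label. Bulk RNA includes cells that were not targeted, so this level cannot decide if the label is wrong. The 8 macrophage markers summed to 79.4 to 3676 CPM in Keap1-wildtype untreated, 89.0 to 211 in Keap1-wildtype BAP, 371 to 1546 in Keap1-deleted untreated and 1738 to 3730 in Keap1-deleted BAP tumours. The 8 basal keratinocyte markers summed to 1068 to 47023, 26504 to 62409, 2021 to 27285 and 30.1 to 1508 CPM in the same order, so the markers that define the labelled cell type were lowest in Keap1-deleted BAP tumours. Keap1-wildtype untreated 6 stood apart from its group, with the highest macrophage sum (3676 CPM) and the lowest keratinocyte sum (1068 CPM) of the 6. T cell receptor complex genes (Cd3d, Cd3e and Cd3g) summed to 0.611 to 12.2 CPM over all libraries, which is low beside the myeloid markers.

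The 10 genes spanned a wide range of levels, highest for VISTA and lowest for PD-L2. Per kilobase of gene model, the mean over 22 libraries was 12 CPM for Vsir, 4.19 for Havcr2, 2.15 for Lag3, 1.96 for Cd274, 0.990 for Pdcd1, 0.768 for Tigit, 0.762 for Ctla4, 0.355 for Il2ra, 0.122 for Foxp3 and 0.0761 for Pdcd1lg2. Lag3 and Cd274, and likewise Tigit and Ctla4, were neighbours in this order whose levels lay well within each other's spread over the libraries. No count was recorded for Pdcd1lg2 in 7 libraries, for Tigit in 4, for Foxp3 in 3 and for Il2ra in 1. Keap1-wildtype untreated 2 was at 0 for all 4 of these genes and had the lowest Cd3 sum of its group (1.28 CPM). A count of 0 at these depths allows up to 3 counts, which is 0.0619 to 0.116 CPM depending on the library, counting error only. As all libraries are bulk tumour RNA, fewer cells of a type and less RNA per cell cannot be told apart for any of these genes.

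**Figure D1:**
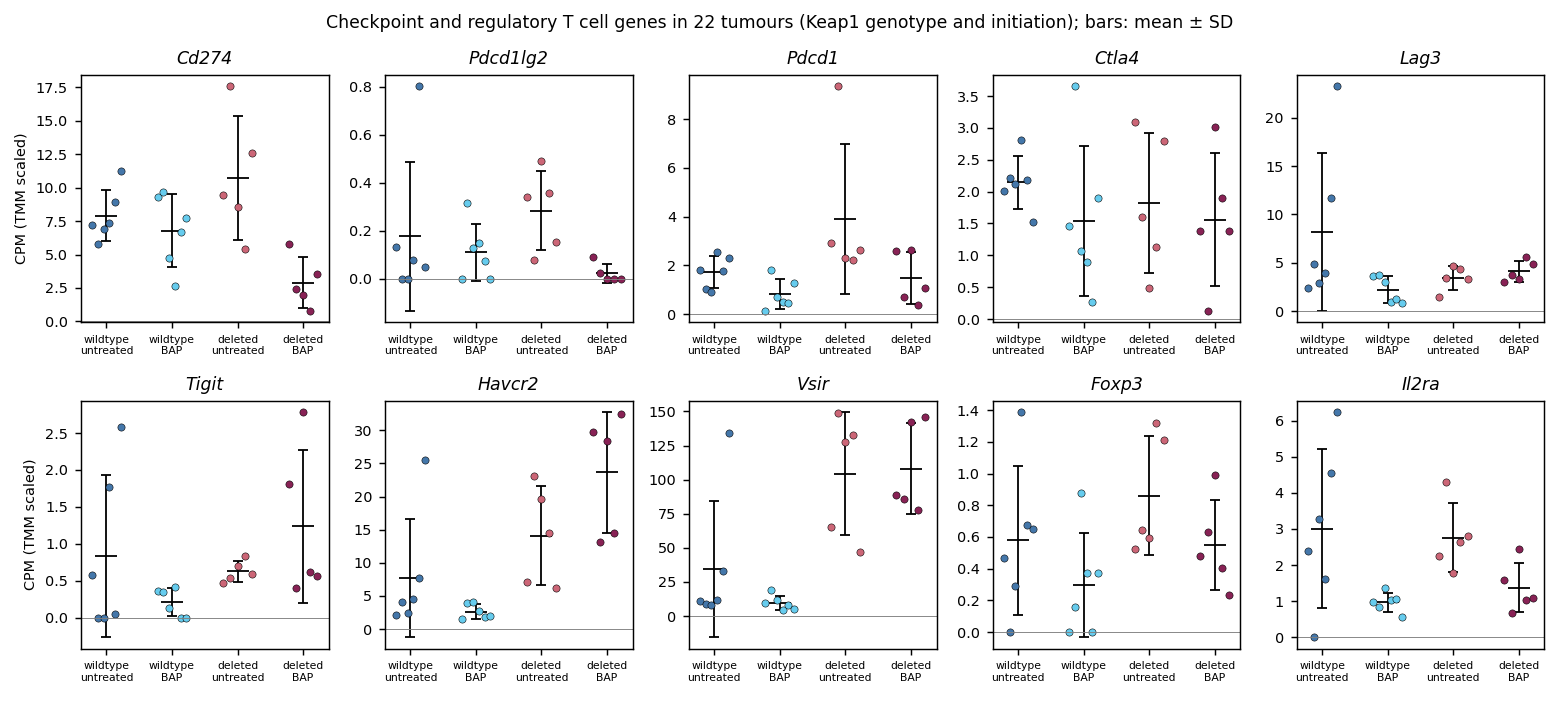
Level of each of the 10 genes (vertical axes, CPM after TMM scaling, each with its own linear scale) in the 4 groups. Points are tumours and bars are the mean ± SD; Havcr2 and Vsir of all 5 Keap1-deleted BAP tumours lie above all 6 Keap1-wildtype BAP tumours, and 1 Keap1-wildtype untreated tumour lies far above its group for both.

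Across the 4 pairwise comparisons, 3 of the 10 genes passed the test in at least 1. In BAP tumours, Havcr2 and Vsir rose and Cd274 fell with Keap1 deletion. In Keap1-deleted tumours, Cd274 fell with BAP. None of the 10 passed for Keap1 deletion in untreated tumours or for BAP in Keap1-wildtype tumours. Of all genes tested, 40.3% passed for Keap1 deletion in BAP tumours and 6.10% for BAP in Keap1-deleted tumours. In the other comparisons 0.292% and 0% passed, in the order just given. As 40.3% passed in 1 comparison alone, 3 of 10 is not above the background. The comparisons share groups, so they are not separate pieces of evidence.

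Cd274, the gene for PD-L1, was the more abundant of the 2 ligands of PD-1. In Keap1-wildtype untreated tumours it ranged from 5.77 to 11.3 CPM with a median of 7.29, and in Keap1-wildtype BAP tumours from 2.66 to 9.68 CPM with a median of 7.20. In the 5 Keap1-deleted untreated tumours it was 9.48, 17.6, 8.55, 5.45 and 12.6 CPM, and in the 5 Keap1-deleted BAP tumours 5.79, 2.40, 1.94, 0.777 and 3.56 CPM. The Keap1-deleted BAP tumours were the lowest group, and 1 of its 5 tumours (5.79 CPM) reached into the range of both untreated groups. With BAP in Keap1-deleted tumours, Cd274 fell from 10.7 ± 4.61 CPM (SD, n = 5) to 2.89 ± 1.90 CPM (SD, n = 5), a log2 fold change of -1.89 ± 0.44 (edgeR adjusted p = 0.0221). This was 1 of the 10 genes called, where 6.10% of all genes tested were called and 5.16% were lower. With Keap1 deletion in BAP tumours, it fell by 1.23 on the log2 scale (SE 0.42, edgeR adjusted p = 0.0253) from a Keap1-wildtype mean of 6.80 ± 2.72 CPM (SD, n = 6). The 2 groups overlapped between 2.66 and 5.79 CPM.

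Both of these calls on Cd274 sat close to the threshold. Leaving out 1 library at a time, the fall with Keap1 deletion in BAP tumours was called in 5 of 11 fits, at log2 fold changes of -1.65 to -0.99 and edgeR adjusted p of 0.00637 to 0.0616. The call was lost without Keap1-wildtype BAP 1 (0.0512), 2 (0.0507) or 6 (0.0502), and without the library labelled Keap1-deleted BAP 2 (0.0548) or Keap1-deleted BAP 3 (0.0616) or 4 (0.0588), the numbers in parentheses being the adjusted p. The fall with BAP in Keap1-deleted tumours was called in 6 of 10 fits, at -2.31 to -1.64. It was lost without Keap1-deleted untreated 1 (0.0534), 2 (0.0532) or 5 (0.0628), or without Keap1-deleted BAP 4 (0.0533). It was also lost in the fit of the compared groups alone (-1.85, adjusted p = 0.0659) and with the T cell score (-1.56, 0.0623), the keratinocyte score (-1.64, 0.442) or the macrophage score (-2.17, 0.0532) as a covariate. The fall with Keap1 deletion in BAP tumours was lost in the fit of the compared groups alone (-1.16, 0.0720), with the keratinocyte score (-0.84, 0.907) or the macrophage score (-1.96, 0.448), and without both Keap1-wildtype untreated 6 and the library labelled Keap1-deleted BAP 2 (-1.17, 0.0513). Scaled by library totals alone, the fall of Cd274 with Keap1 deletion in BAP tumours was -0.84 (adjusted p = 0.118). That scaling raised the median of all genes in this comparison by 0.342 on the log2 scale relative to TMM. In untreated tumours the Keap1-deleted minus wildtype difference of Cd274 was 0.44 ± 0.41 (edgeR adjusted p = 0.582). The difference between the Keap1 effects in BAP and in untreated tumours, the interaction, was -1.67 ± 0.59 (adjusted p = 0.0770), which did not pass. With BAP in Keap1-wildtype tumours Cd274 differed by -0.22 ± 0.39 (adjusted p = 0.850).

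Cd274 did not follow the macrophage markers. Its Spearman correlation with the macrophage score, the mean log2 CPM of the 8 markers, was -0.143 over the 22 libraries, against 0.216 with the keratinocyte score. Keap1-wildtype untreated 6, with the highest macrophage sum of its group, had the highest Cd274 of its group (11.3 CPM), whereas the 5 Keap1-deleted BAP tumours had macrophage sums of 1738 to 3730 CPM and Cd274 of 0.777 to 5.79 CPM. Per 1000 CPM of summed macrophage markers, Cd274 was 0.343 to 1.55 CPM in Keap1-deleted BAP tumours and 22.3 to 92.4 CPM in Keap1-wildtype BAP tumours. The keratinocyte scores of the Keap1-deleted BAP and Keap1-wildtype BAP groups (1.04 to 5.58 and 9.33 to 10) do not overlap, so keratinocyte level and genotype cannot be told apart in the fall of Cd274. The genes most like Cd274 across the 22 libraries, among 13308 genes with a mean of at least 1 CPM, were Sod2 (Spearman rho 0.885), which encodes mitochondrial superoxide dismutase, Slc25a10 (0.782), a mitochondrial dicarboxylate carrier, and Tnfaip3 (0.767), which encodes the NF-kB inhibitor A20. These correlations describe libraries that share depth and tissue makeup. Cd274 lies on chromosome 19 from 29367455 to 29388095 (GRCm38, plus strand) and shares 511 exon bases with AC119228.1 on the opposite strand, whose mean was 0.380 CPM. Whether counting used strand is not stated.

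Pdcd1lg2, the gene for PD-L2, was near the limit of detection in every group. The 5 Keap1-deleted untreated tumours were at 0.341, 0.0804, 0.491, 0.359 and 0.155 CPM, and the 5 Keap1-deleted BAP tumours at 0.0904, 0.0252, 0, 0 and 0 CPM, a total of 4 counts. Keap1-wildtype untreated tumours ranged from 0 to 0.805 CPM with a median of 0.0644, and Keap1-wildtype BAP tumours from 0 to 0.318 CPM with a median of 0.103. Every Keap1-deleted untreated tumour had a count, whereas 3 of 5 Keap1-deleted BAP tumours had none. The log2 fold change with BAP in Keap1-deleted tumours was -3.48 ± 1.40 (edgeR adjusted p = 0.153), and a difference was not detectable at this depth. The gene lies on chromosome 19 from 29410919 to 29471161, next to Cd274.

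Pdcd1 encodes PD-1, the receptor of both ligands. It ranged from 0.903 to 2.55 CPM with a median of 1.80 in Keap1-wildtype untreated tumours and from 0.129 to 1.81 CPM with a median of 0.599 in Keap1-wildtype BAP tumours. The Keap1-deleted untreated tumours were at 2.91, 9.37, 2.32, 2.22 and 2.64 CPM and the Keap1-deleted BAP tumours at 2.59, 0.707, 2.64, 0.375 and 1.09 CPM. Keap1-deleted untreated 2 was far above the other 4 of its group and also had the highest Cd3 sum of all libraries (12.2 CPM). The log2 fold changes were 1.17 ± 0.60 for Keap1 deletion in untreated tumours (edgeR adjusted p = 0.314) and -1.39 ± 0.64 for BAP in Keap1-deleted tumours (adjusted p = 0.218), with overlapping groups in both. Neither passed. Divided by the Cd3 sum, Pdcd1 had medians of 0.616 in untreated and 0.574 in BAP tumours with Keap1 wildtype, and 0.607 and 0.778 with Keap1 deleted, with overlapping ranges. In the Keap1-deleted untreated group the ratio ran from 0.288 to 0.768, and Keap1-deleted untreated 2 was its highest. The genes most like Pdcd1 were Cytip (rho 0.814), a cytohesin-binding protein of haematopoietic cells, Saa3 (0.811), an acute phase protein, and Sap30l (0.801).

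Ctla4 encodes the receptor that competes with CD28 for CD80 and CD86. Its group means lay close together, at 2.15 ± 0.414 CPM (SD, n = 6), 1.54 ± 1.17 CPM (SD, n = 6), 1.83 ± 1.10 CPM (SD, n = 5) and 1.56 ± 1.04 CPM (SD, n = 5) for untreated and BAP tumours with Keap1 wildtype and for untreated and BAP tumours with Keap1 deleted. The Keap1-deleted untreated tumours were at 3.10, 1.61, 0.491, 1.14 and 2.79 CPM and the Keap1-deleted BAP tumours at 1.39, 0.126, 3.01, 1.90 and 1.38 CPM, so tumours of a group differed more than the groups did. Log2 fold changes in the 4 pairwise comparisons ran from -0.47 to 0.02, with SE of 0.59 to 0.64 and edgeR adjusted p of 0.769 to 0.984. Its most like genes, Zmat2 (rho 0.741), Ppm1b (0.736) and Nfib (0.732), are not lymphocyte markers.

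Lag3, whose product binds MHC class II, had its highest values in Keap1-wildtype untreated tumours. These ranged from 2.35 to 23.3 CPM with a median of 4.38, with Keap1-wildtype untreated 6 at 23.3 CPM and Keap1-wildtype untreated 5 at 11.7 CPM. Keap1-wildtype BAP tumours ranged from 0.858 to 3.76 CPM with a median of 2.13. The Keap1-deleted untreated tumours were at 1.43, 3.43, 4.65, 4.31 and 3.28 CPM and the Keap1-deleted BAP tumours at 2.98, 3.76, 3.30, 5.60 and 4.89 CPM. The Keap1-deleted groups were narrow and overlapped each other and the lower Keap1-wildtype untreated tumours. With BAP in Keap1-wildtype tumours the log2 fold change was -1.87 ± 0.54 (edgeR adjusted p = 0.150), the smallest adjusted p of the 10 genes in that comparison, and it did not pass. DESeq2 called it at -1.90 (adjusted p = 0.0142). With Keap1 deletion the difference was -1.25 ± 0.56 in untreated tumours and 0.88 ± 0.55 in BAP tumours, opposite in sign. Without Keap1-wildtype untreated 6 the untreated difference was -0.59 (edgeR adjusted p = 0.436), and by limma-voom with all libraries it was -0.69 (adjusted p = 0.334). The interaction was 2.13 ± 0.79 (edgeR adjusted p = 0.0900), which did not pass either. Its most like genes were Tmem8b (rho 0.843), Klc4 (0.829), a kinesin light chain, and Ttc26 (0.813), a component of cilium transport, none of them a T cell marker.

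Tigit, whose product binds the poliovirus receptor, was rarely above 1 CPM. Keap1-wildtype untreated tumours ranged from 0 to 2.59 CPM with a median of 0.311, and Keap1-wildtype BAP tumours from 0 to 0.407 CPM with a median of 0.240. The Keap1-deleted untreated tumours were at 0.465, 0.536, 0.697, 0.838 and 0.594 CPM and the Keap1-deleted BAP tumours at 1.81, 0.404, 2.78, 0.616 and 0.559 CPM. All 10 Keap1-deleted tumours had counts, and 4 of 12 Keap1-wildtype tumours had none. With Keap1 deletion in BAP tumours the log2 fold change was 2.55 ± 1.18 (edgeR adjusted p = 0.0890). It did not pass by edgeR, but did by DESeq2 (2.62, adjusted p = 0.0419), by limma-voom (2.86, adjusted p = 0.0166) and by edgeR on the compared groups alone (2.61, adjusted p = 0.0365). In that order these fits called 45.0%, 46.9% and 44.8% of all genes tested, against 40.3% in the edgeR fit of all 22 libraries. Keap1-wildtype BAP tumours held 0 to 11 counts of Tigit. The groups overlapped between 0.404 and 0.407 CPM. Its Spearman correlation was 0.730 with the macrophage score and 0.522 with the T cell score, the mean log2 CPM of the 3 Cd3 genes.

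Havcr2, the gene for TIM-3, rose with Keap1 deletion in BAP tumours. Keap1-wildtype BAP tumours ranged from 1.49 to 4.04 CPM with a median of 2.32, and the 5 Keap1-deleted BAP tumours were at 29.8, 13.2, 28.4, 14.5 and 32.5 CPM. Keap1-wildtype untreated tumours ranged from 2.08 to 25.5 CPM with a median of 4.27, and the 5 Keap1-deleted untreated tumours were at 7.07, 23.1, 19.6, 14.5 and 6.26 CPM. Every Keap1-deleted BAP tumour was above every Keap1-wildtype BAP tumour, while the untreated groups overlapped because Keap1-wildtype untreated 5 and 6 (7.71 and 25.5 CPM) reached into it or above it. In BAP tumours the mean was 23.6 ± 9.09 CPM (SD, n = 5) with Keap1 deleted and 2.65 ± 1.09 CPM (SD, n = 6) without, a log2 fold change of 3.16 ± 0.57 (edgeR adjusted p = 0.000529). Leaving out 1 library at a time, it was called in 11 of 11 fits, at 3.02 to 3.32. In untreated tumours the difference was 0.87 ± 0.54 (adjusted p = 0.401).

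Vsir, the gene for VISTA, was the most abundant of the 10 and followed Havcr2. Keap1-wildtype BAP tumours ranged from 4.70 to 19.1 CPM with a median of 8.68, and the 5 Keap1-deleted BAP tumours were at 88.5, 86.0, 142, 78.1 and 146 CPM. Keap1-wildtype untreated tumours ranged from 8.07 to 134 CPM with a median of 11.1, with Keap1-wildtype untreated 6 at 134 CPM, and the 5 Keap1-deleted untreated tumours were at 65.3, 149, 128, 133 and 46.9 CPM. All 10 Keap1-deleted tumours were above 11 of the 12 Keap1-wildtype tumours, the exception being Keap1-wildtype untreated 6. In BAP tumours the mean was 108 ± 33.1 CPM (SD, n = 5) with Keap1 deleted and 9.61 ± 5.35 CPM (SD, n = 6) without, a log2 fold change of 3.49 ± 0.66 (edgeR adjusted p = 0.000675). It was called in 11 of 11 fits that each left out 1 library, at 3.35 to 3.81. The 2 genes Havcr2 and Vsir, with Cd274, made 3 of 10 genes called in this comparison, where 40.3% of all genes tested were called, 20.3% of them higher and 20.0% lower as shares of all genes tested. The share of the 10 genes called is thus close to the background. Havcr2 and Vsir were also the 2 of 10 genes with Keap1-deleted BAP wholly above Keap1-wildtype BAP, against 13.8% of all genes tested.

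Keap1-wildtype untreated 6 decided the untreated comparison for both genes. With all libraries, the Keap1-deleted minus wildtype difference of Vsir in untreated tumours was 1.60 ± 0.62 (edgeR adjusted p = 0.196), and 0 of 10 genes were called, against 0.292% of all genes tested. At an unadjusted p under 0.05 there were 2 of 10, Vsir and Lag3, against 17.6% of all genes tested. Without that library, Vsir differed by 2.86 (adjusted p = 0.00159) and Havcr2 by 1.76 (adjusted p = 0.0132), both called, and 2731 of 18984 genes tested were called in place of 56. It was also the library with the highest macrophage sum of its group. The interaction was 2.29 ± 0.78 for Havcr2 (edgeR adjusted p = 0.0701) and 1.89 ± 0.88 for Vsir (0.178). None of the 10 genes passed for the interaction, where 6.94% of all genes tested were called, and 4 of 10 had an unadjusted p under 0.05, against 26.5% of all genes tested. DESeq2 called 3 of 10, Cd274, Lag3 and Havcr2, against 15.7% of all genes tested.

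**Figure D2:**
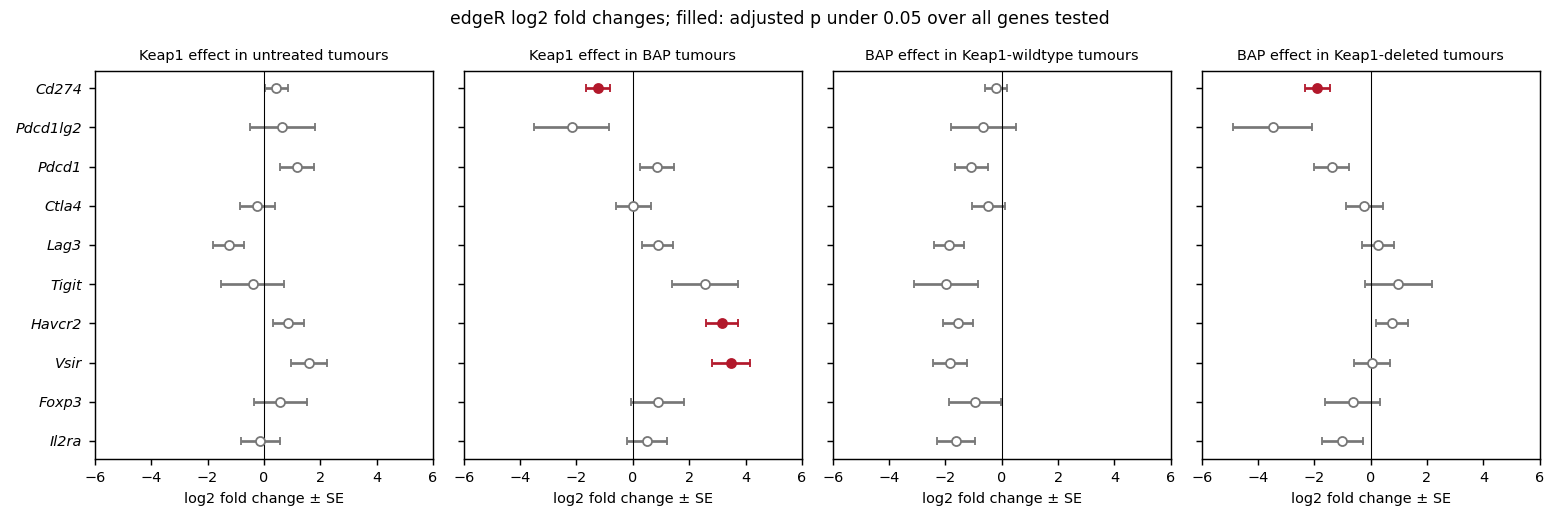
Log2 fold change ± SE (horizontal axes) of the 10 genes in the 4 pairwise comparisons by edgeR. Filled red points passed at an adjusted p under 0.05 over all genes tested: Cd274, Havcr2 and Vsir for Keap1 deletion in BAP tumours, and Cd274 for BAP in Keap1-deleted tumours.

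Over the 22 libraries, Havcr2 and Vsir moved with the macrophage markers. Vsir did not do so between the 2 Keap1-deleted groups, with a log2 fold change of 0.05 ± 0.65 with BAP (edgeR adjusted p = 0.979). The macrophage sums of these 2 groups, 371 to 1546 CPM untreated and 1738 to 3730 CPM with BAP, did not overlap. The 8 markers had a median log2 fold change of 1.59 there, with 0 called. All 8 macrophage markers (Adgre1, Csf1r, Cd68, C1qa, C1qb, C1qc, Mrc1 and Ms4a7) rose with Keap1 deletion in BAP tumours and all 8 basal keratinocyte markers fell, where 40.3% of all genes were called. Markers of other tissue components rose as well. All 5 fibroblast markers rose, with a median log2 fold change of 4.35 against 4.93 for the macrophage markers, and their sums ran from 376 to 1459 CPM in Keap1-wildtype BAP and from 8975 to 25098 CPM in Keap1-deleted BAP tumours. Of 5 skeletal muscle markers 4 rose, with a median of 5.03 and sums of 1.44 to 48.2 against 7.63 to 684 CPM. The salivary gland marker Amy1 rose by 7.19 on the log2 scale, and the 4 salivary markers summed to 1654 CPM in 1 Keap1-deleted BAP tumour, where the group median was 1.26 CPM. The part of these cells in the differences of Havcr2 and Vsir was not tested. Over the 22 libraries the Spearman correlation with the macrophage score was 0.918 for Vsir and 0.904 for Havcr2, and -0.768 and -0.881 with the keratinocyte score. The 2 genes correlated at 0.913 with each other, the highest among pairs of the 10 genes. With the macrophage score as a covariate, the Keap1 difference in BAP tumours was -0.20 for Vsir (adjusted p = 0.927) and 0.13 for Havcr2 (adjusted p = 0.963), and 2 genes of all tested were called. With the keratinocyte score as a covariate it was 1.26 (adjusted p = 0.863) and 1.33 (adjusted p = 0.815), with 0 genes called. The macrophage sums of the 2 BAP groups do not overlap, so macrophage level and genotype cannot be told apart there. Per 1000 CPM of summed macrophage markers, Vsir was 23.7 to 49.5 CPM in Keap1-deleted BAP and 50.7 to 183 CPM in Keap1-wildtype BAP tumours, and Havcr2 was 6.41 to 9.91 and 8.89 to 37.1 CPM. In Keap1-deleted untreated tumours these ratios were 85.9 to 144 for Vsir and 9.39 to 21.2 for Havcr2. By median, both ratios were lowest in Keap1-deleted BAP tumours (43.9 for Vsir and 7.98 for Havcr2), and that of Vsir was highest in Keap1-deleted untreated tumours (127).

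**Figure D3:**
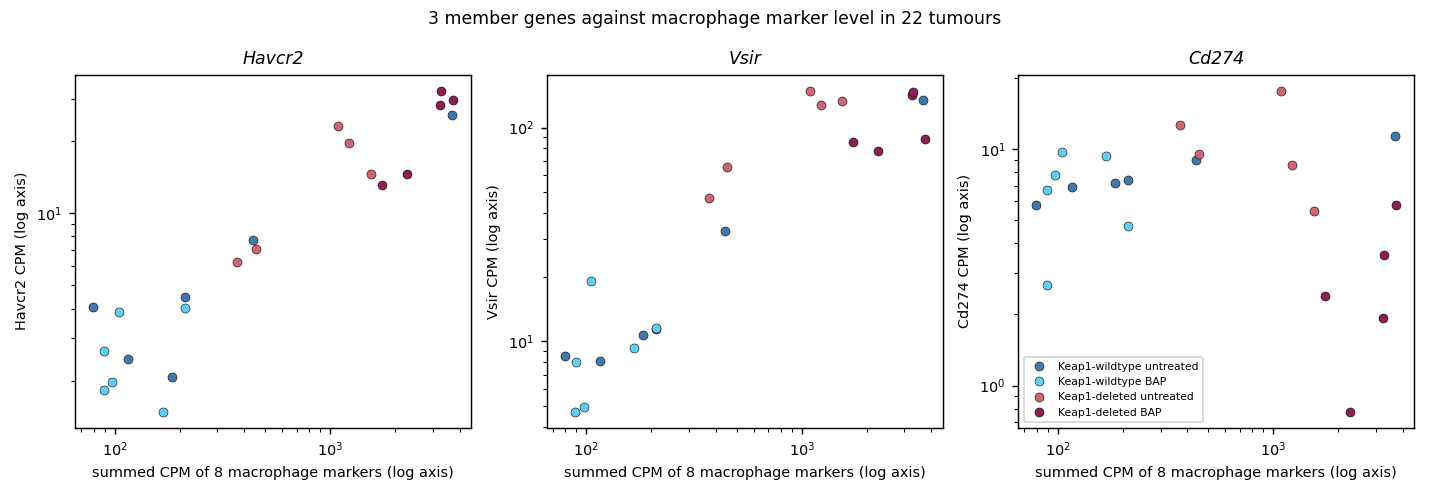
Level of Havcr2, Vsir and Cd274 (vertical log axes, CPM) against the summed CPM of 8 macrophage markers (horizontal log axes) in 22 tumours, coloured by group. Over the 22 tumours Havcr2 and Vsir climb with the macrophage sum (Spearman correlation with the macrophage score 0.904 and 0.918), and Cd274 does not (-0.143). Between the 2 Keap1-deleted groups Vsir stays level, at means of 104 CPM untreated and 108 CPM with BAP.

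The genes most like Havcr2 and Vsir were genes of leukocytes. For Havcr2 they were March1 (rho 0.966), a ubiquitin ligase that acts on MHC class II, Sla (0.963), a Src-like adaptor, and Ms4a6b (0.960). For Vsir they were Laptm5 (0.968), a lysosomal membrane protein of haematopoietic cells, Arhgap30 (0.963) and Rac2 (0.962), the haematopoietic Rac GTPase. Havcr2 lies on chromosome 11 from 46454935 to 46481255 and Vsir on chromosome 10 from 60346851 to 60372684, both on the plus strand. The Vsir locus overlaps Cdh23 on the opposite strand but shares no exon base with it.

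With BAP in Keap1-wildtype tumours, 0 of 10 genes and 0% of all genes tested were called by edgeR, and limma-voom also called 0 genes in all. All 10 log2 fold changes were negative, with a median of -1.32 against -0.09 for all genes tested. The 10 genes were measured in the same tumours, so their shared direction is not 10 separate results. How many of all genes tested were negative was not counted. At an unadjusted p under 0.05 there were 4 of 10, against 13.7% of all genes tested (2622 genes). They were Lag3, Vsir (-1.84 ± 0.61, edgeR adjusted p = 0.179), Havcr2 (-1.54 ± 0.53, 0.194) and Il2ra (-1.63 ± 0.68, 0.285). DESeq2 called 892 genes in all (4.65%), and Lag3 and Vsir were 2 of 10 among them. Keap1-wildtype untreated 6 had the highest value of its group for Lag3, Vsir, Havcr2, Tigit, Il2ra and Cd274. Without it, Lag3 differed by -1.20, Vsir by -0.58, Havcr2 by -0.65 and Il2ra by -1.28 on the log2 scale. None was called, but 0 genes were called with all libraries and in each of the 12 fits that left out 1 library.

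Foxp3, the defining transcription factor of regulatory T cells, was at 1.39 CPM or lower in every tumour. The Keap1-deleted untreated tumours were at 0.527, 0.643, 0.594, 1.32 and 1.21 CPM and the Keap1-deleted BAP tumours at 0.482, 0.631, 0.990, 0.402 and 0.236 CPM. Keap1-wildtype untreated tumours ranged from 0 to 1.39 CPM with a median of 0.558, and Keap1-wildtype BAP tumours from 0 to 0.879 CPM with a median of 0.265. The 4 groups overlapped throughout, and no tumour held more than 48 counts. Log2 fold changes were 0.57 ± 0.94 and 0.88 ± 0.95 for Keap1 deletion in untreated and in BAP tumours, and -0.95 ± 0.92 and -0.64 ± 0.99 for BAP in Keap1-wildtype and in Keap1-deleted tumours, with edgeR adjusted p of 0.484 to 0.778. With standard errors of 0.92 to 0.99, differences of this size were not detectable at this depth. Divided by the Cd3 sum, Foxp3 had medians of 0.136 in untreated and 0.0560 in BAP tumours with Keap1 wildtype, and 0.117 and 0.225 with Keap1 deleted, with overlapping ranges. Foxp3 lies on chromosome X from 7573644 to 7595245 and shares exon bases with Flicr on its own strand (853) and with Ccdc22 (590), Gm36995 (373) and Ppp1r3f (266) on the opposite strand, so reads in those stretches are uncertain.

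Il2ra, the alpha chain of the interleukin 2 receptor, was higher than Foxp3 in level per kilobase and likewise did not pass in any comparison. Keap1-wildtype untreated tumours ranged from 0 to 6.24 CPM with a median of 2.83, and Keap1-wildtype BAP tumours from 0.559 to 1.37 CPM with a median of 1.0. The Keap1-deleted untreated tumours were at 2.26, 4.31, 1.78, 2.64 and 2.82 CPM and the Keap1-deleted BAP tumours at 1.60, 0.682, 2.45, 1.05 and 1.09 CPM. Both BAP groups were lower in mean than the untreated group of their genotype, at 0.972 ± 0.269 CPM (SD, n = 6) against 3.01 ± 2.20 CPM (SD, n = 6) and at 1.37 ± 0.686 CPM (SD, n = 5) against 2.76 ± 0.953 CPM (SD, n = 5), with overlapping ranges. The BAP differences were -1.63 ± 0.68 (edgeR adjusted p = 0.285) and -1.0 ± 0.73 (0.492). Over the 22 libraries Il2ra correlated at 0.609 with Foxp3 and at 0.560 with the T cell score. Its most like genes were Cd244a (rho 0.811), a receptor of NK and T cells, Cd2 (0.779), a T cell adhesion molecule, and Svep1 (0.778), an extracellular matrix protein.

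**Figure D4:**
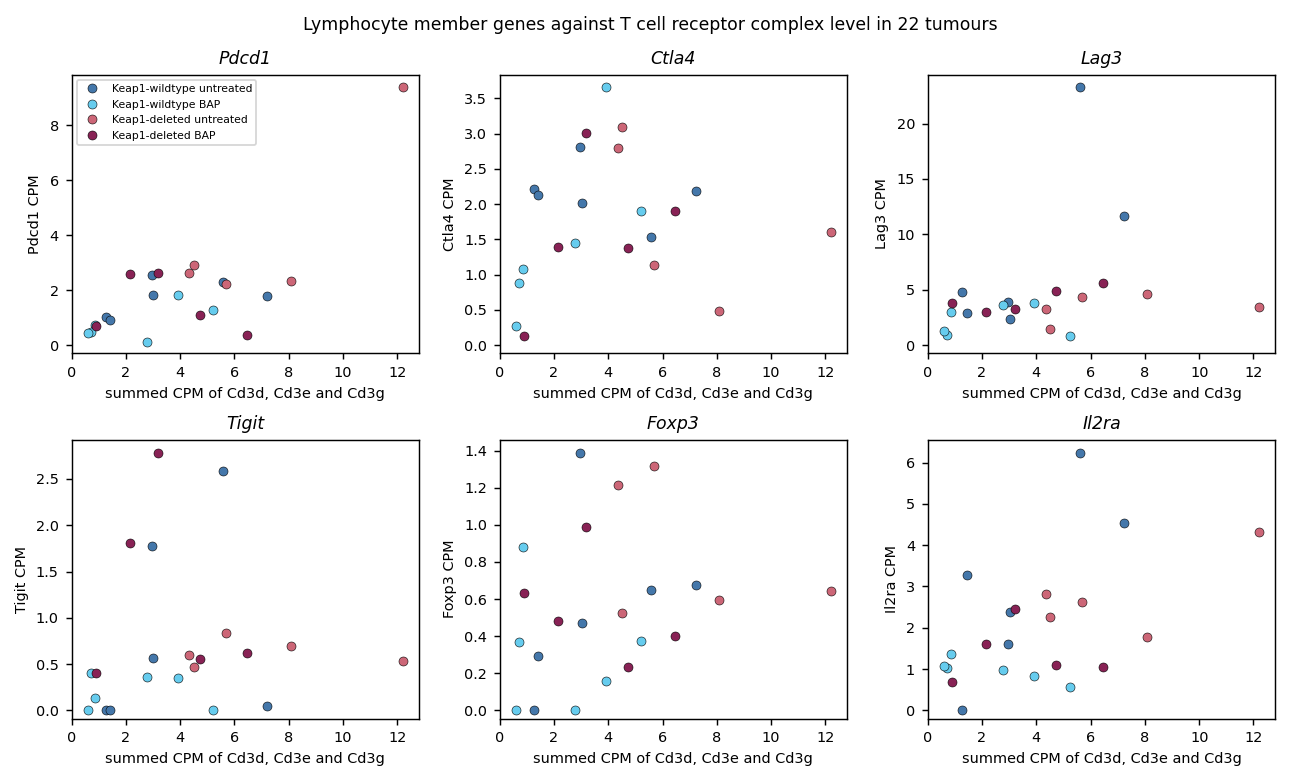
Level of Pdcd1, Ctla4, Lag3, Tigit, Foxp3 and Il2ra (vertical axes, CPM) against the summed CPM of Cd3d, Cd3e and Cd3g (horizontal axes) in 22 tumours, coloured by group. The Pdcd1 panel has 1 Keap1-deleted untreated tumour at 9.37 CPM with the highest Cd3 sum (12.2 CPM), and the highest Lag3 value (23.3 CPM) is a Keap1-wildtype untreated tumour at a Cd3 sum of 5.59 CPM.

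Of the 10 T cell markers, none rose and Cd5 alone fell with Keap1 deletion in BAP tumours. In this comparison 40.3% of all genes tested were called, 20.3% higher and 20.0% lower. The log2 fold changes of the 10 markers had a median of 0.75 and were positive for 8 of the 10. The summed level of the 10 ranged from 13.3 to 30.2 CPM in Keap1-wildtype untreated, 13.2 to 27.9 in Keap1-wildtype BAP, 20.4 to 28.5 in Keap1-deleted untreated and 7.55 to 16.5 in Keap1-deleted BAP tumours, and no marker was at 0 in a whole group. Cd5 was 12.1 ± 4.91 CPM in Keap1-wildtype BAP tumours (SD, n = 6), above the sum of the 3 Cd3 genes in the same tumours (0.611 to 5.22 CPM), and was 0.922 ± 0.555 CPM when Keap1 was deleted (SD, n = 5). The lower sum in Keap1-deleted BAP tumours was carried by Cd5. Without it the other 9 markers summed to 7.74 ± 3.17 CPM with Keap1 wildtype (SD, n = 6) and to 11.6 ± 3.62 CPM with it deleted (SD, n = 5), with overlapping ranges of 3.78 to 12.9 and 6.26 to 15.0 CPM. All 5 NK cell markers rose in this comparison, with sums of 0.153 to 0.781 CPM in Keap1-wildtype BAP and 2.83 to 24.6 CPM in Keap1-deleted BAP tumours; Ncr1 was at 0 in all 6 Keap1-wildtype BAP tumours. Among 6 dendritic cell markers tested, 4 rose. NK cells and dendritic cells also express genes among the 10, and their part in the differences was not tested.

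The partners of the 10 genes were counted from lists chosen with earlier results of these data known. Of 20 other inhibitory and costimulatory ligands, 19 were tested, and 8 rose and 3 fell with Keap1 deletion in BAP tumours. Their median log2 fold change was 1.22, and 40.3% of all genes were called. Cd86, a ligand of CTLA-4 and CD28, rose from 2.16 ± 0.843 to 20.3 ± 7.19 CPM (SD, n = 6 and 5), a log2 fold change of 3.23 ± 0.51 (edgeR adjusted p = 0.000332). Nectin3, an adhesion molecule that TIGIT binds, rose by 4.21 ± 0.87 and Tnfrsf14, the ligand of BTLA, by 3.17 ± 0.67. Igsf11, a ligand of VISTA, was at 0 in all 6 Keap1-wildtype BAP tumours and was called in the Keap1-deleted ones, which had 0.353 ± 0.276 CPM (SD, n = 5). Cd80, the other ligand of CTLA-4, Icosl and Tnfsf9 were the 3 that fell (-1.60, -1.65 and -1.36), named after their values were seen. So 1 ligand of CTLA-4 was called higher and the other lower. The Cd80 call (edgeR adjusted p = 0.0194) came with overlapping groups. Its Keap1-wildtype BAP tumours ranged from 2.81 to 38.5 CPM (12.1 ± 13.7 CPM, SD, n = 6), and its Keap1-deleted BAP tumours from 2.52 to 5.49 CPM. Cd86 (3.14) and Igsf11, 2 of 19, passed for the interaction as well, where 6.94% of all genes did. None of the 19 passed in the other 3 comparisons, where Cd200 came nearest with a log2 fold change of 1.92 ± 0.42 for Keap1 deletion in untreated tumours (adjusted p = 0.0505).

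Of 16 other T cell checkpoint and costimulatory receptors, 14 were tested, and 2 rose and 2 fell with Keap1 deletion in BAP tumours, with a median log2 fold change of 1.12. With 4 of 14 called, against 40.3% of all genes, the share was not above the background, and a difference from it was not tested. Cd200r1, an inhibitory receptor of myeloid cells, rose by 3.74 ± 0.76. Cd28, the activating counterpart of CTLA-4, rose by 3.70 ± 1.17 from 0.0547 ± 0.117 to 0.767 ± 0.402 CPM (SD, n = 6 and 5). Its Keap1-wildtype BAP mean lies below the 0.0619 to 0.116 CPM that a count of 0 allows, so the size of this rise is uncertain. Tnfrsf18 and Tnfrsf4, the genes for GITR and OX40, both carried by regulatory T cells, fell by 3.20 and 1.70 on the log2 scale. Tnfrsf18 went from 26.0 ± 20.5 to 2.83 ± 1.17 CPM, levels above Foxp3 in both groups. In Keap1-wildtype BAP tumours it was also above the Cd3 sum (2.35 ± 1.94 CPM, SD, n = 6). All 8 basal keratinocyte markers fell in this comparison too. Which cells carried Tnfrsf18 and Tnfrsf4 was not tested. None of the 14 passed in the other comparisons.

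Of 17 other genes linked to regulatory T cells, 16 were tested, and 3 rose and 1 fell with Keap1 deletion in BAP tumours, with a median of 0.29. Nrp1 (neuropilin 1) rose by 2.98 ± 0.54, Entpd1 (CD39) by 2.04 ± 0.40 and Il1rl1 (the interleukin 33 receptor ST2) by 6.85 ± 1.70. With 4 of 16 called, against 40.3% of all genes, the list's share was not above the background, and a difference from it was not tested. The 3 genes that rose are also used by endothelial, myeloid, mast and stromal cells. The Foxp3 difference in this comparison (0.88 ± 0.95) was not detectable at this depth. Il1rl1 varied widely among the Keap1-deleted BAP tumours, at 361 ± 445 CPM (SD, n = 5). Areg (amphiregulin, also made by keratinocytes) fell from 37.3 ± 25.5 to 3.41 ± 4.05 CPM. With BAP in Keap1-deleted tumours, Lrrc32 (GARP, which holds latent TGF-beta on regulatory T cells) fell by 1.53 on the log2 scale, from 85.8 ± 30.4 to 29.8 ± 13.3 CPM (edgeR adjusted p = 0.0347), and Areg fell by 2.78. These were 2 of 16, where 6.10% of all genes were called. Lrrc32, 1 of 16, passed for the interaction too (-1.89 ± 0.56, adjusted p = 0.0456), where 6.94% of all genes did. Its 85.8 CPM in Keap1-deleted untreated tumours was far above Foxp3 (0.859 ± 0.376 CPM, SD, n = 5) and the Cd3 sum (6.96 ± 3.29 CPM, SD, n = 5). Which cells carried Lrrc32 was not tested.

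Of 10 other genes of interleukin 2 signalling, 9 were tested. Il2rb, the beta chain of the receptor, rose by 2.60 ± 0.90 with Keap1 deletion in BAP tumours (edgeR adjusted p = 0.0266), and Cish, a feedback inhibitor of cytokine signalling, fell by 1.68 on the log2 scale (adjusted p = 0.00485). These were 2 of 9, where 40.3% of all genes were called. Il2 itself did not pass the filter on low counts. None of the 9 passed in the other comparisons.

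Of 12 genes on the route from interferon gamma to PD-L1, 11 were tested, and 3 rose and 3 fell with Keap1 deletion in BAP tumours, where Cd274 fell. In this comparison 40.3% of all genes were called, 20.3% higher and 20.0% lower. Irf1, the transcription factor through which interferon gamma acts on Cd274, rose from 18.7 ± 5.43 to 65.8 ± 10.4 CPM (SD, n = 6 and 5), a log2 fold change of 1.81 ± 0.38 (edgeR adjusted p = 0.00122). Ifngr1, a chain of the interferon gamma receptor, rose by 1.54 ± 0.35, and the other chain, Ifngr2, rose as well. Nlrc5, the activator of MHC class I genes, fell from 57.1 ± 16.8 to 10 ± 5.14 CPM (-2.52 ± 0.42, adjusted p = 0.000361). Cmtm4 and Cmtm6, which protect the PD-L1 protein from degradation, fell by 0.77 and 0.85 on the log2 scale. Ifng did not pass the filter on low counts. Cmtm4 also passed for the interaction (-1.0 ± 0.28, adjusted p = 0.0405).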

How the data were processed

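RNA from 22 primary mouse tumours was sequenced as paired-end Illumina libraries, per the labels' protocols. For each library the authors deposited an RSEM expected count and an effective length, in bases, for 56748 Ensembl gene IDs. The sources used here do not give the aligner, build, annotation, strandedness or versions. The deposited expected counts were whole numbers (tolerance 1e-09) and were rounded before the fit. The deposited length, an other value per gene, was the same in all 22 files and served only for levels per kilobase. Symbols and positions came from GENCODE M21 (GRCm38) by ID: 52073 IDs, holding 99.39% of counts, matched. Promoters came from RefSeq (GRCm38.p6), for 9 of the 10 genes.

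Total counts ran from 29235010 to 39862777 per library. Groups follow genotype and treatment in the labels, and replicates are numbered in order of deposition. No 2 libraries were duplicates: over 12352 genes, the smallest ratio of chi-square to its degrees of freedom in 231 pairs was 96.5.

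Counts were fitted with edgeR 4.0.16 in R 4.3.3 (filterByExpr, minimum count 10, 19202 genes; TMM; robust quasi-likelihood F test over the 4 groups; 5 contrasts; Benjamini-Hochberg over all genes; calls under 0.05). SE is the log2 fold change divided by the root of F. Marker scores are mean log2 CPM with a prior count of 2. The fit was tested on simulated data for Keap1 deletion in untreated tumours only. The simulation gave every gene the same spread and held no library that stood apart, so it does not cover such libraries. Alternatives were DESeq2 1.42.0 size factors or its test, limma-voom (limma 3.58.1) with sample weights, no filter, at least 1 CPM in 5 libraries, library totals, only the compared groups, a title ending in R, the keratinocyte or T cell score as a covariate, and each library left out. The macrophage score, and the joint removal of Keap1-wildtype untreated 6 and the library labelled Keap1-deleted BAP 2, were chosen after seeing the data.

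The 10 genes and the lists were chosen with earlier results of these data known. Named genes are the 10, Keap1, up to 4 called genes by smallest p of each list and contrast (up to 2, as values, where none is called), and the 3 genes most alike by Spearman correlation for members with a mean of at least 1 CPM. Not every gene this rule selects is printed.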

Additional observations from a re-analysis of the deposited data

Results flagged for a closer look

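In groups of 5 or 6 tumours, the highest and lowest values were compared with the rest by Dixon's criterion over 40 groups of values, of which chance alone flags about 1 in 20. In all, 5 values stood apart, each the highest of its group. Keap1-wildtype untreated 6 did so for Havcr2 (25.5 CPM) and for Vsir (134 CPM), and this library also had the highest macrophage marker sum of its group. Keap1-deleted untreated 2 did so for Pdcd1 (9.37 CPM), with the highest Cd3 sum of all libraries. For Pdcd1lg2 the values were 0.805 CPM in Keap1-wildtype untreated 5 and 0.0904 CPM in Keap1-deleted BAP 1, the latter being 3 counts.

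The Lag3 difference with Keap1 deletion pointed down in all 5 untreated tumours and up in all 5 BAP tumours relative to the mean of the matching Keap1-wildtype group. The difference between the 2 was 2.13 on the log2 scale (edgeR adjusted p = 0.0900), which did not pass, although it did with DESeq2 (2.19, adjusted p = 0.0346). The untreated mean was raised by Keap1-wildtype untreated 5 and 6 (11.7 and 23.3 CPM), and the group median was 4.38 CPM. Without Keap1-wildtype untreated 6 the untreated difference went from -1.25 to -0.59 (edgeR adjusted p = 0.436) and the interaction was 1.47 (adjusted p = 0.203).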

How the results depend on the processing

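Of 1222 values of the 10 genes' log2 fold changes under alternatives, 1118 kept direction and side of the threshold, 22 lost the call, 19 gained it and 63 changed sign; the cause was not tested. No paired analysis was possible because the labels carry no replicate numbers that pair tumours. Leaving out a library can take Pdcd1lg2 below the filter, as does the filter of 1 CPM, so those fits give no value for it. Its DESeq2 adjusted p was not given in 3 comparisons. Counts of 0 to 48 limit Foxp3 and Pdcd1lg2.

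In parentheses is the share of all genes tested that the same fit called. Of the 10 genes, DESeq2 called 2 for BAP in Keap1-wildtype tumours (4.65%) and 3 for the interaction (15.7%). limma-voom called 1 for Keap1 deletion in untreated tumours (9.74%) and 2 for BAP in Keap1-deleted tumours (16.7%). With the T cell score 0 were called for BAP in Keap1-deleted tumours (7.04%) and 2 for the interaction (8.72%). For BAP in Keap1-deleted tumours 0 were called with the keratinocyte score (0.0104%) or the macrophage score (0.417%), and for Keap1 deletion in BAP tumours 0 with either (0% and 0.0104%). With the compared groups alone 0 were called for BAP in Keap1-deleted tumours (2.05%), and with titles ending in R as a term 1 for the interaction (15.7%). Without the 2 libraries that stood apart, 2 were called for Keap1 deletion in untreated tumours (12.9%). Leaving out 1 library gave 0 to 2 for Keap1 deletion in untreated tumours, where 16 to 2731 of all genes tested were called. It gave 0 to 1 for BAP in Keap1-deleted tumours, where 181 to 1597 of all genes tested were called. For the interaction it gave 0 to 1, where 1 to 2276 of all genes tested were called.

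With the macrophage score, the log2 fold changes that changed sign were, for Keap1 deletion in untreated tumours, Pdcd1lg2 -0.10, and for Keap1 deletion in BAP tumours, Pdcd1 -0.18, Lag3 -1.63, Tigit -0.19, Vsir -0.20, Foxp3 -0.12 and Il2ra -1.23, and for BAP in Keap1-wildtype tumours, Cd274 0.016, Pdcd1lg2 0.29 and Vsir 0.11, and for BAP in Keap1-deleted tumours, Ctla4 0.10, Lag3 -0.58, Havcr2 -0.20, Tigit -0.013 and Vsir -1.12, and for the interaction, Havcr2 -0.035, Vsir -1.23, Foxp3 -0.36 and Il2ra -0.69.
With limma-voom, the log2 fold changes that changed sign were, for Keap1 deletion in untreated tumours, Tigit 1.81 and Il2ra 0.62, and for Keap1 deletion in BAP tumours, Ctla4 -0.18, and for BAP in Keap1-deleted tumours, Vsir -0.0058, and for the interaction, Il2ra -0.36.
Without the 2 libraries that stood apart, the log2 fold changes that changed sign were, for Keap1 deletion in untreated tumours, Tigit 0.40 and Il2ra 0.22, and for BAP in Keap1-deleted tumours, Ctla4 0.074.
With the T cell score, the log2 fold changes that changed sign were, for Keap1 deletion in BAP tumours, Ctla4 -0.33, and for BAP in Keap1-wildtype tumours, Pdcd1lg2 0.34, and for BAP in Keap1-deleted tumours, Ctla4 0.074, and for the interaction, Pdcd1 0.16.
With titles ending in R as a term, the log2 fold changes that changed sign were, for Keap1 deletion in BAP tumours, Ctla4 -0.018, and for the interaction, Pdcd1 0.29.
With the keratinocyte score, the log2 fold changes that changed sign were, for Keap1 deletion in BAP tumours, Lag3 -0.97 and Il2ra -0.048, and for BAP in Keap1-deleted tumours, Ctla4 0.25, Lag3 -0.84, Havcr2 -0.27 and Vsir -1.21, and for the interaction, Pdcd1 0.066 and Vsir -0.56.
Leaving out 1 library at a time, values on both sides of 0 were found for Ctla4 in the Keap1 effect in untreated tumours (-0.50 to 0.015), Tigit in the Keap1 effect in untreated tumours (-0.67 to 0.40), Il2ra in the Keap1 effect in untreated tumours (-0.39 to 0.22), Ctla4 in the Keap1 effect in BAP tumours (-0.36 to 0.48), Ctla4 in the BAP effect in Keap1-deleted tumours (-0.61 to 0.073), Vsir in the BAP effect in Keap1-deleted tumours (-0.13 to 0.21), Pdcd1 in the interaction (-0.62 to 0.32), Ctla4 in the interaction (-0.13 to 0.72) and Foxp3 in the interaction (-0.16 to 1.02).

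Over all genes, calls for Keap1 deletion in untreated tumours ran from 0 to 2731 over the settings (56 as reported), for Keap1 deletion in BAP tumours from 0 to 9002 (7746), for BAP in Keap1-wildtype tumours from 0 to 892 (0), for BAP in Keap1-deleted tumours from 2 to 3205 (1172) and for the interaction from 0 to 3021 (1333). Scaled by library totals, 73.3% of calls for Keap1 deletion in BAP tumours were higher, against 50.3% with TMM, and 62.0% against 35.6% for the interaction.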
